A study of Mus musculus with 8 samples.

Results

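Lif, Csf2, Il3 and Il21 encode secreted cytokines, Il2 encodes a cytokine as well, and Il6st encodes gp130, a receptor chain of the cell surface through which the Lif protein signals. The 6 genes were chosen by name, because results of oxPAPC against control were already known for them, and 5 of them had a row among the 19330 genes of the deposited table. Il2 had none and was not analysed here. Il6st is a receptor gene, so the label of secreted cytokines holds for 4 of the 5 genes measured. Each library was RNA of regulatory T cells (Tregs) polarized in culture for 3 days from splenic naive CD4+ T cells of B6 mice. In 4 libraries the culture contained oxPAPC, a mixture of oxidized phospholipids, and 4 control libraries had none. Neither the dose of oxPAPC nor whether replicates were separate mice or cultures is given in the sources used here. P-values therefore measure the spread between these libraries, which may be technical.

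LIF binds a receptor made of LIFR and gp130 and activates JAK kinases and STAT3, and gp130 is also the shared chain of the receptors for interleukin 6, interleukin 11, oncostatin M and interleukin 27. GM-CSF, the product of Csf2, and interleukin 3 act on myeloid cells, mast cells and their precursors through a private alpha chain and a common beta chain encoded by Csf2rb. Interleukin 2 and interleukin 21 signal through receptors that contain the common gamma chain encoded by Il2rg. Activated helper T cells are a known source of these cytokines, and Tregs depend on interleukin 2 while making little of it.

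Il3 and Csf2 lie side by side on chromosome 11 of GRCm38, on the minus strand. Il3 spans positions 54265303 to 54267277 and Csf2 spans 54247271 to 54249667, a gap of 15.6 kb with no annotated protein-coding gene between them. Lif lies on the plus strand of the same chromosome, at 4257557 to 4272514, and its nearest protein-coding neighbour, 16.5 kb away, is Osm, which encodes oncostatin M. Il21 is on the minus strand of chromosome 3, at 37222759 to 37232636, and Il6st on the plus strand of chromosome 13, at 112464070 to 112510086. Antisense genes are annotated across Csf2 (Gm12223) and Il21 (Gm12534). Whether reads were counted by strand is not given, so reads from such partners cannot be told apart.

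The sequences upstream of Lif, Il3 and Csf2 are shown, and that of Il21 is not, though each of these genes was higher in oxPAPC libraries. They are RefSeq promoter entries of GRCm38.p6, printed 5′ to 3′ along the gene and ending before the annotated start, from chr11:4257318-4257556 (plus strand), chr11:54267280-54267529 (minus strand) and chr11:54249900-54250149 (minus strand). Capitals mark matches, on either strand, to the AP-1 motif TGANTCA or the NFAT core GGAAA.
Lif: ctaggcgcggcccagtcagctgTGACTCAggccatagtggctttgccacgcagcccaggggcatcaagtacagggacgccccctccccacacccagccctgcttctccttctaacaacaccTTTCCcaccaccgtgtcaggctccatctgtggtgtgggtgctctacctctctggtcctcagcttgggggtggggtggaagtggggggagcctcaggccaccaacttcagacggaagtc
Il3: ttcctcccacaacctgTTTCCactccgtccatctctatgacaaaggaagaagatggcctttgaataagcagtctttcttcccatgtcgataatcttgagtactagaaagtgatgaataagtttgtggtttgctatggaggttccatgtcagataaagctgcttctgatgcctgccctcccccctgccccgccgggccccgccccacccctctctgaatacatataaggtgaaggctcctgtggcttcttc
Csf2: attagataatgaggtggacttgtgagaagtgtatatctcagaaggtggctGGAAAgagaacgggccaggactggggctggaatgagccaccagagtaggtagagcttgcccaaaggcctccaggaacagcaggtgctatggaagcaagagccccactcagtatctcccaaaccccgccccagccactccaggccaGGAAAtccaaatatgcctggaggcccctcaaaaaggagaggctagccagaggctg
All 5 measured genes had a promoter entry of 300 bases, reaching from 250 before to 50 after the RefSeq start. The AP-1 motif was found in that of Lif alone, and 7.81% of all 32851 entries hold it. The NFAT core occurred once for Lif and for Il3, 2 times for Il6st and 3 times for Csf2 and for Il21, 1 of the Csf2 matches lying past the printed stretch. It is present in 61.3% of all entries, and in 9.42% it occurs 3 or more times. The STAT motif TTCNNNGAA, the TATA box TATAAA and the NF-kB motif had no match in any of the 5 entries, against 8.3%, 13.6% and 4.51% of all entries. No matches overlapped. The RefSeq start of Csf2 lies 232 bases upstream of the GENCODE start, so the stretch just before the GENCODE start is not in its entry.

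Library totals ran from 14017583 to 21619731 counts, and 1 noncoding gene, Gm26917, took 9.35% to 19.4% of the counts of oxPAPC libraries and 8.59% to 29.1% of those of control libraries. Values are given in CPM, read counts relative to the library total after TMM scaling, unless stated otherwise. The 7 T cell genes set as markers of the labelled cell type (Cd3d, Cd3e, Cd3g, Cd4, Trac, Lck and Cd247) were all present and summed to 1619 to 1961 CPM in oxPAPC libraries and 1791 to 2070 CPM in control libraries. The 8 Treg markers summed to 1660 to 2376 CPM in oxPAPC libraries and 1422 to 1839 CPM in control libraries. None of the 8 passed an adjusted p of 0.05 in edgeR, while DESeq2 called 3 of them higher. Il2ra, the most abundant of them, had 821 CPM in oxPAPC and 541 CPM in control libraries. Foxp3 had 144.7 CPM in oxPAPC and 154 CPM in control libraries (edgeR adjusted p = 0.854). In bulk RNA, a change in the number of cells that make a transcript and a change in the amount per cell cannot be told apart.

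Of the 5 genes, Lif, Csf2, Il3 and Il21 had higher values in every oxPAPC library than in any control library, and Il6st had lower ones. Non-overlap in the upward direction held for 9.50% of the 16434 genes tested and in the downward direction for 9.86%. Of the 5, 4 passed the filter on low counts, with Il21 removed, and by edgeR's quasi-likelihood test at a Benjamini-Hochberg adjusted p under 0.05 the background was 6.75% of tested genes called higher and 6.52% called lower. Lif, Csf2 and Il3 were among the higher calls and Il6st among the lower ones. Il21 reached 5 counts only in oxPAPC libraries, so it had a row only through the group in which it was high. Csf2 and Il3 likewise passed the filter on low counts only with their oxPAPC libraries. The direction of these 3 genes is thus partly set by the filters, and the shares over tested genes do not include Il21. The authors' deposited table called all 5, 4 higher and Il6st lower, where 7.88% of its 18316 genes with an adjusted p were called higher and 6.55% lower. With library size scaling, 71.6% of all calls were higher, against 50.9% with TMM. Because the 5 genes were chosen from this contrast, their calls and their non-overlap are no independent support for a difference. The changes of these genes are given as a description and without p-values.

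Lif was the most abundant of the 4 chosen cytokine genes. It had 219.8, 226, 273 and 233 CPM in oxPAPC replicates 1 to 4, against 51.3, 38.8, 39.6 and 58.2 CPM in control replicates 1 to 4. The lowest oxPAPC library was 3.78 times the highest control library. Lif averaged 238 ± 24.1 CPM in oxPAPC libraries and 47.0 ± 9.42 CPM in control libraries (SD, n = 4 each), a log2 fold change of 2.34 ± 0.17 (SE). The spread was narrow, with a coefficient of variation of 10.1% in oxPAPC libraries and 20.1% in control libraries. In the authors' deposited table, the log2 fold change of Lif is 2.37 with a standard error of 0.18.

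Csf2, the gene of GM-CSF, was low in control libraries. It had 105, 95, 135 and 224 counts in oxPAPC replicates 1 to 4, against 22, 11, 18 and 8 counts in control replicates 1 to 4. In CPM these were 7.84, 6.28, 5.96 and 11.4 in oxPAPC libraries and 1.46, 0.830, 0.823 and 0.368 in control libraries. The value of oxPAPC replicate 4 was the highest and that of control replicate 4 the lowest, and the groups did not overlap. Csf2 averaged 7.86 ± 2.47 CPM in oxPAPC libraries and 0.871 ± 0.450 CPM in control libraries (SD, n = 4 each). Its log2 fold change was 3.21 ± 0.35 (SE). The coefficient of variation was 31.5% in oxPAPC and 51.7% in control libraries, where at most 22 reads were counted in a library.

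Il3, which encodes a growth factor of mast cells and blood progenitors, had 113, 76, 133 and 97 counts in oxPAPC replicates 1 to 4, against 12, 4, 7 and 6 counts in control replicates 1 to 4. In CPM these were 8.43, 5.03, 5.87 and 4.92 in oxPAPC libraries and 0.798, 0.302, 0.320 and 0.276 in control libraries. Replicate 1 had the highest value within each group, and no control library came near the oxPAPC range. Il3 averaged 6.06 ± 1.64 CPM in oxPAPC libraries and 0.424 ± 0.250 CPM in control libraries (SD, n = 4 each). Its log2 fold change was 3.86 ± 0.35 (SE). Its ratio of group means, 14.3, was above those of Csf2 (9.02) and Lif (5.07). The difference between these ratios was not tested.

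Il21, which encodes a cytokine that helps B cells, was at the limit of detection. It had 7, 12, 9 and 10 counts in oxPAPC replicates 1 to 4, and 0, 0, 1 and 0 counts in control replicates 1 to 4. Every oxPAPC library held reads, while a single read was found in all control libraries together. Summed over libraries, 38 reads against 1 read give a ratio of 38.5 after scaling, with an exact 95% interval of 6.51 to 1562 that covers counting error only. The interval pools the libraries of each group, and Il21 was chosen from this contrast, so it does not test a difference. The authors' deposited table gives a log2 fold change of 5.02 with a standard error of 1.17.

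Il6st, the gp130 gene, went the other way. It had 76.7, 85.5, 85.1 and 83.8 CPM in oxPAPC replicates 1 to 4, against 115, 145, 152 and 136 CPM in control replicates 1 to 4. The highest oxPAPC library was 0.743 times the lowest control library. Il6st averaged 82.8 ± 4.11 CPM in oxPAPC libraries and 137 ± 15.8 CPM in control libraries (SD, n = 4 each), a log2 fold change of -0.72 ± 0.14 (SE). Its coefficient of variation in oxPAPC libraries, 4.96%, was the lowest of the 5 genes.

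**Figure D1:**
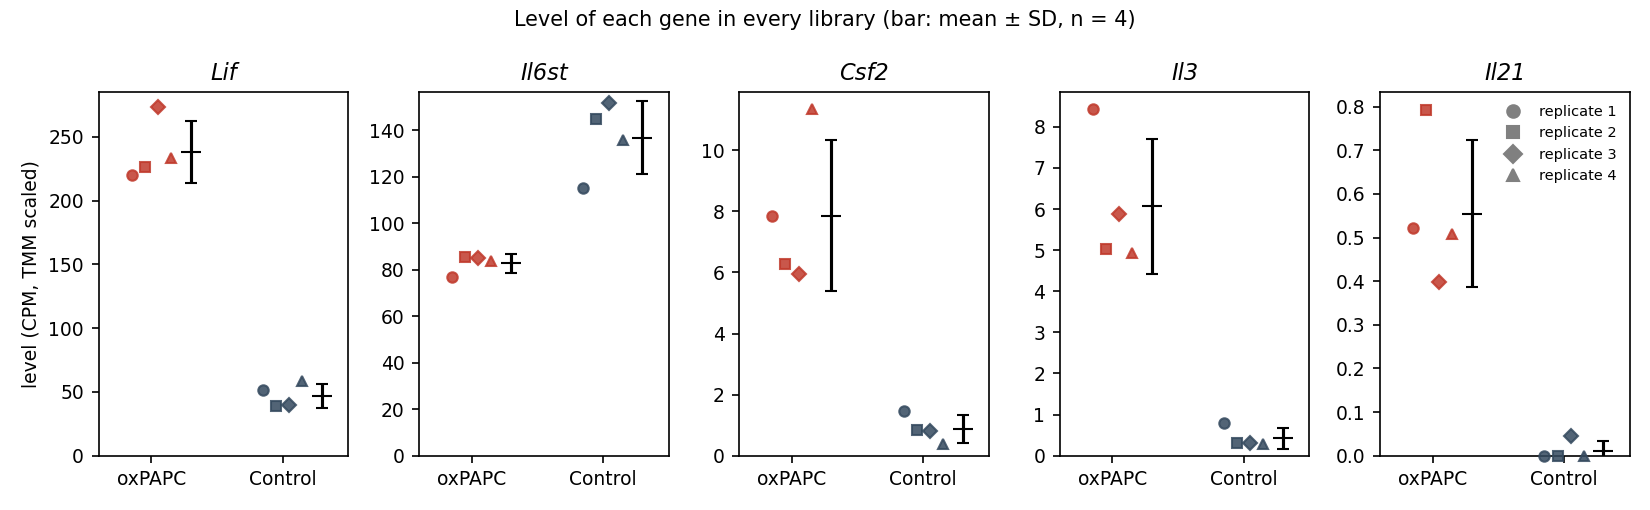
Level of each gene in CPM (vertical axis, linear from 0, one scale per panel) in every oxPAPC and control library, with marker shapes for replicates 1 to 4 and bars for the mean ± SD (n = 4). In the Lif panel the oxPAPC libraries lie between 219.8 and 273 CPM and the control libraries between 38.8 and 58.2 CPM, and the Il6st panel is the only one with control libraries above oxPAPC libraries.

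Levels of different genes were compared per length, as CPM per kb of annotated exon. In oxPAPC libraries the order was Lif with 54.8 ± 5.55, Csf2 with 9.82 ± 3.09, Il3 with 9.64 ± 2.60, Il6st with 7.46 ± 0.37 and Il21 with 0.106 ± 0.032 CPM per kb (SD, n = 4). Csf2 and Il3, neighbours in this order, overlapped. Every Il3 library was above every Il6st library, with 7.82 CPM per kb in the lowest Il3 library and 7.71 CPM per kb in the highest Il6st library, while Csf2 and Il6st overlapped. In control libraries Il6st came first with 12.3 ± 1.43, followed by Lif with 10.8 ± 2.17, Csf2 with 1.09 ± 0.56, Il3 with 0.674 ± 0.398 and Il21 with 0.0022 ± 0.0043 CPM per kb (SD, n = 4). There, Il6st and Lif overlapped, as did Csf2 and Il3. The exon lengths join all annotated isoforms, 11099 bases for Il6st and 629 for Il3, so genes with long untranslated exons are set low on this scale.

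**Figure D2:**
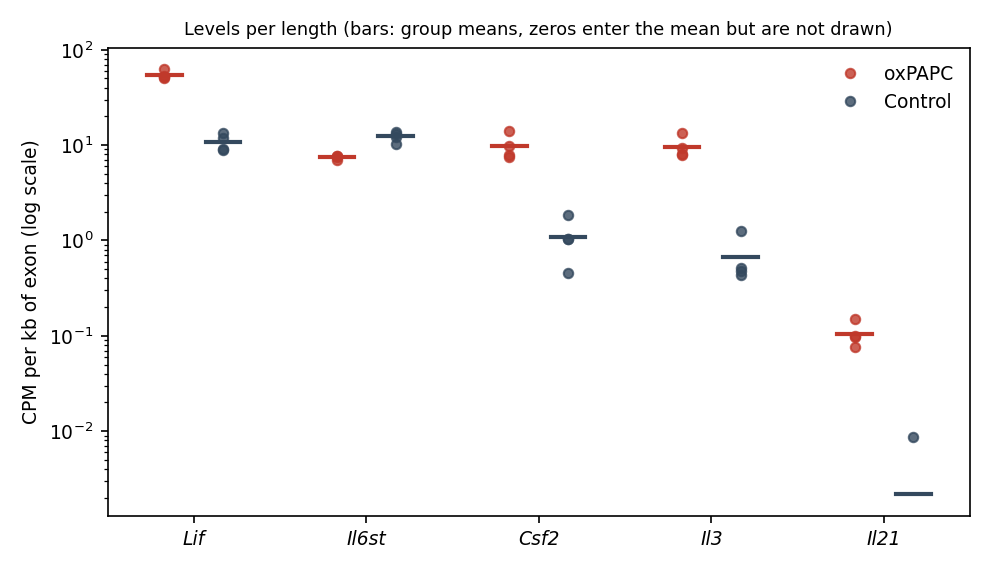
Level per kb of exon on a log axis for each gene, oxPAPC libraries left of control libraries, with points for libraries and short bars for group means; libraries with no reads of Il21 are not drawn. Lif is the highest gene in oxPAPC libraries (54.8 CPM per kb) and lies beside Il6st in control libraries (10.8 and 12.3 CPM per kb).

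Among 32 T cell cytokine genes of the table, the 4 chosen ones included, Lif ranked number 6 per kb in oxPAPC libraries and number 7 in control libraries. In oxPAPC libraries it stood just under Ifng, the interferon gamma gene (57.5 ± 14.8 CPM per kb), and above Tnfsf11, the RANK ligand gene (39.2 ± 4.04 CPM per kb, SD, n = 4). The distance to Ifng was smaller than the spread of Ifng. In control libraries Ifng had 2.32 ± 1.05 CPM per kb and ranked number 17. Csf2 and Il3 ranked number 16 and 17 in oxPAPC libraries and number 20 and 23 in control libraries, and Il21 ranked last in both groups. Of the other cytokine genes, 27 were tested, and their median log2 fold change was 0.86, against -0.01 over all tested genes. Of them, 16 were called higher and 1 lower, against 6.75% and 6.52% of all tested genes. Those with the smallest adjusted p were Ifng, Il13, Il5 and Il17f. Ifng had 74.4 ± 19.2 CPM in oxPAPC and 3.00 ± 1.37 CPM in control libraries, and Il13, a type 2 cytokine gene, had 19.5 ± 7.94 CPM in oxPAPC and 0.676 ± 0.188 CPM in control libraries (SD, n = 4 each, adjusted p of 1.85e-06 and 4.39e-06 in edgeR). Il5, which encodes a growth factor of eosinophils, rose to 2.45 CPM in oxPAPC libraries, against 0.127 CPM in control libraries, and Il17f, a type 17 cytokine gene, to 10.6 CPM in oxPAPC libraries, against 1.63 CPM in control libraries. The lower one was Tgfb3, a TGF-beta gene, named after its value was seen (log2 fold change -2.09 ± 0.30 SE; adjusted p = 0.000513 in edgeR).

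The chosen genes did not share 1 high library among the oxPAPC replicates. Lif was highest in oxPAPC replicate 3, Csf2 in replicate 4, Il3 in replicate 1, and Il6st and Il21 in replicate 2. On the log2 CPM scale, Csf2 in replicate 4 was 0.57 above its group mean and Il3 in the same library 0.26 below it (deviation -0.26). In control libraries Csf2 and Il3 were both highest in replicate 1, by 0.80 and 0.86 above their group means, and both lowest in replicate 4, with deviations of -0.91 and -0.37. Those deviations rest on 22 and 12 reads in control replicate 1, and on 8 and 6 reads in control replicate 4.

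**Figure D3:**
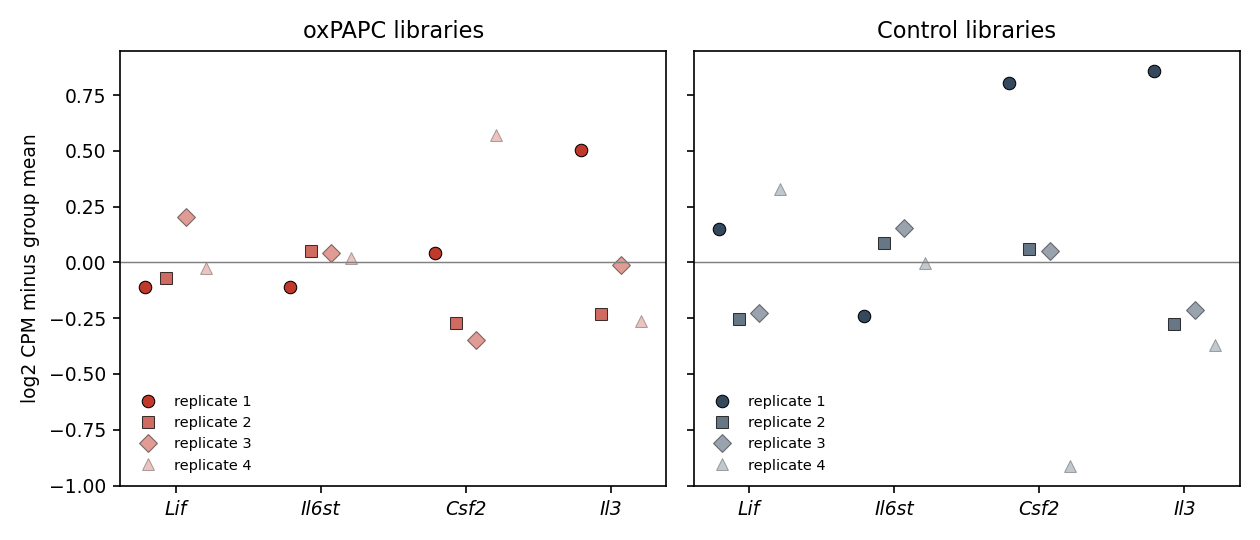
Deviation of each library from its group mean on the log2 CPM scale (vertical axis) for Lif, Il6st, Csf2 and Il3, oxPAPC libraries in the left panel and control libraries in the right panel. Different oxPAPC replicates are highest for different genes, while control replicate 1 is highest for both Csf2 (0.80) and Il3 (0.86).

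Of the 9 receptor genes set down for these cytokines, 7 were tested, with a median log2 fold change of 0.47. By edgeR's quasi-likelihood test 2 of them rose and none fell, against 6.75% and 6.52% of all tested genes. At an unadjusted p under 0.05, 4 were higher and 0 lower, and DESeq2 called 3 higher and 0 lower, limma-voom 1 and 0. Lifr, the private chain for LIF, had no row and was not analysed here. Csf2rb, the common beta chain for GM-CSF and interleukin 3, had 1.49, 1.39, 2.82 and 2.18 CPM in oxPAPC libraries, against 0.266, 0.226, 0.0914 and 0.920 CPM in control libraries. It rose by 2.33 ± 0.51 on the log2 scale (SE; adjusted p = 0.00836 in edgeR), at a low level at which control replicate 4 stood above the other control libraries. Without control replicate 4 its log2 fold change was 3.399. Its close paralog Csf2rb2, the beta chain private to interleukin 3 in mice, had 0.477 CPM in oxPAPC and 0.0905 CPM in control libraries and was not tested, and reads may be shared between both genes. The alpha chains did not pass. Csf2ra had 14.9 ± 2.93 CPM in oxPAPC libraries and 15.1 ± 4.62 CPM in control libraries (SD, n = 4 each, edgeR adjusted p = 0.976). Its log2 fold change of -0.01 ± 0.23 (SE) changed sign with RLE or library size scaling. Il3ra had a log2 fold change of -0.36 ± 0.17 (SE; adjusted p = 0.186 in edgeR), which passed only without control replicate 3 (0.044).

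The receptor chains for interleukin 2 and interleukin 21 were abundant in both groups. Il2rg, the common gamma chain, had 51.1, 46.0, 87.3 and 70.8 CPM in oxPAPC libraries, against 35.3, 37.8, 44.6 and 45.8 CPM in control libraries. It rose by 0.64 ± 0.19 on the log2 scale (SE; adjusted p = 0.0399 in edgeR), with oxPAPC replicate 2 only just above the highest control library. This call was lost with limma-voom (0.0567) and when 1 of oxPAPC replicate 3 or 4 or control replicate 1, 2 or 4 was left out (0.0527 to 0.113). Il2ra, the high-affinity chain and a Treg marker, had 821 ± 211 CPM in oxPAPC and 541 ± 110 CPM in control libraries (SD, n = 4 each, edgeR adjusted p = 0.0902), and passed with DESeq2 (0.0253). Il2rb and Il21r had log2 fold changes of 0.47 and 0.27 with edgeR adjusted p of 0.173 and 0.272.

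Of 18 genes listed for the interleukin 6 family beside Lif and Il6st, 8 were tested, with a median log2 fold change of -0.06. Among these, none rose and 2 fell, against 6.75% and 6.52% of all tested genes. At an unadjusted p under 0.05 there were 2 higher and 3 lower, DESeq2 called 1 higher and 2 lower, and limma-voom 0 and 2. Il6, Il11, Il27 and Osmr were among the 9 without a row. Osm, next to Lif on the chromosome, had 22.9, 28.7, 33.3 and 34.0 CPM in oxPAPC libraries, against 18.8, 17.1, 19.6 and 26.6 CPM in control libraries, so that the groups overlapped. Its log2 fold change was 0.53 ± 0.17 (SE; adjusted p = 0.054 in edgeR), and it passed with genes under a mean of 5 CPM removed (0.0415), with DESeq2 (0.0339) and without oxPAPC replicate 1 (0.0358) or control replicate 4 (0.0215). Il11ra1, the interleukin 11 receptor that pairs with gp130, fell to 2.57 ± 0.35 CPM in oxPAPC libraries, against 5.39 ± 1.20 CPM in control libraries (SD, n = 4 each, log2 fold change -1.06, edgeR adjusted p = 0.00939). Mice carry near-identical copies of Il11ra1, and how reads were split among them is uncertain. Clcf1, a ligand of the family, fell to 9.84 ± 0.38 CPM in oxPAPC libraries, against 14.6 ± 1.59 CPM in control libraries (SD, n = 4 each, log2 fold change -0.57, edgeR adjusted p = 0.0204). The call of Clcf1 was lost with library size scaling (0.182), with the replicate number as a block (0.0615) and without oxPAPC replicate 4 or control replicate 2 or 4 (0.0659 to 0.0681). Il6ra, the interleukin 6 receptor, had lower values in every oxPAPC library than in any control library but did not pass (log2 fold change -0.40 ± 0.14 SE; adjusted p = 0.0724 in edgeR). It passed with genes under a mean of 5 CPM removed (0.0303) and without oxPAPC replicate 3 (0.0418).

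**Figure D4:**
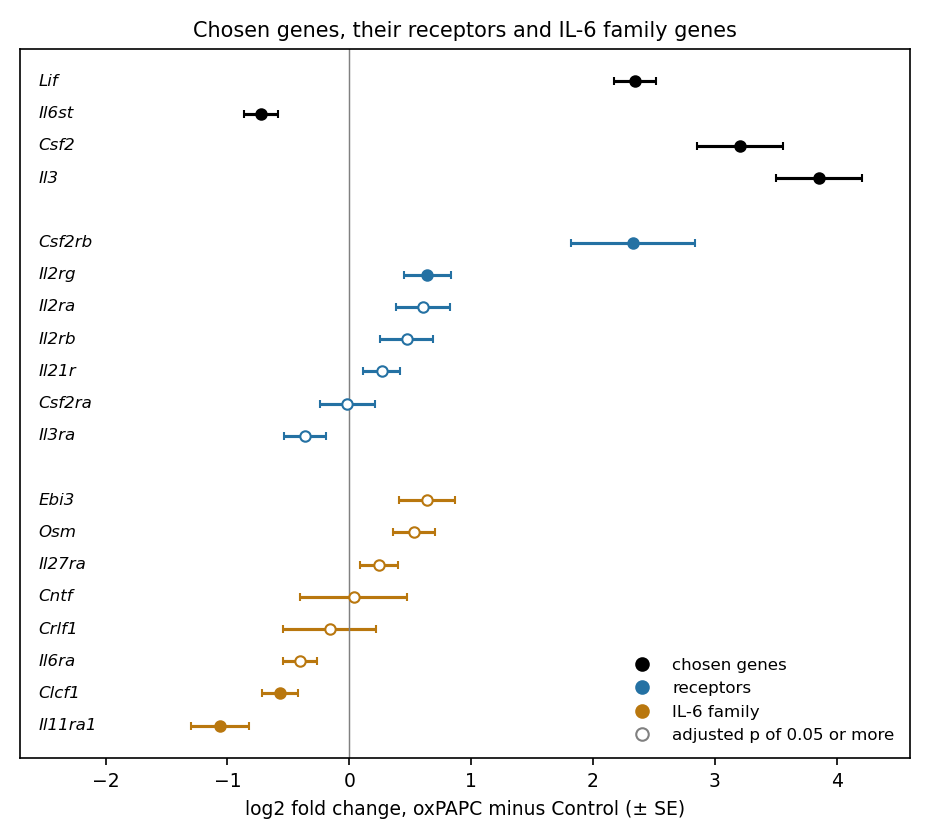
Log2 fold change of oxPAPC over control with its standard error (horizontal axis) for the chosen genes, the receptors of the cytokines and genes of the interleukin 6 family; open circles have an edgeR adjusted p of 0.05 or more. Csf2rb (2.33) is the receptor gene with the highest value, and Il11ra1 (-1.06) has the lowest value shown.

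Downstream of these receptors, 24 genes of JAK-STAT signaling and its feedback were tested, of which 4 rose and 1 fell (median log2 fold change 0.04), against 6.75% and 6.52% of all tested genes. Stat3, the main factor below gp130, had 422 CPM in oxPAPC and 438 CPM in control libraries (log2 fold change -0.05 ± 0.20 SE; adjusted p = 0.9 in edgeR), and Socs3, a feedback inhibitor of gp130, had a log2 fold change of 0.38 ± 0.15 (SE; adjusted p = 0.117 in edgeR). Both are named after their values were seen. Pim1, a kinase gene induced by STAT5 and STAT3, rose to 285 ± 29.1 CPM in oxPAPC libraries, against 140.3 ± 23.8 CPM in control libraries (SD, n = 4 each, edgeR adjusted p = 0.00113). Gab2, an adaptor of cytokine receptors, fell by 1.23 on the log2 scale (with an SE of 0.16; adjusted p = 0.000282 in edgeR). Socs1, a feedback inhibitor of JAK kinases, rose by 0.66 (with an SE of 0.19; adjusted p = 0.0346 in edgeR). That call was lost with the replicate block (0.0908) and without any 1 of oxPAPC replicates 1, 2 and 3 and control replicates 1 and 3 (0.058 to 0.0924).

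Of 36 tested genes of transcription factors known to act on the Il2, Il21, Il3 or Csf2 genes, 5 rose and 4 fell (median log2 fold change 0.08), against 6.75% and 6.52% of all tested genes. Irf4, a factor that works with BATF and JUN at composite sites, had 285, 253, 414 and 336 CPM in oxPAPC libraries, against 116.7, 116.5, 110.4 and 134 CPM in control libraries. It rose by 1.43 ± 0.18 (SE; adjusted p = 0.000189 in edgeR), and every oxPAPC library was above every control library. Batf and Jun, both of the AP-1 family, rose by 0.93 ± 0.14 and 0.84 ± 0.15 (SE, edgeR adjusted p of 0.000837 and 0.0026). Bcl6, the repressor that defines follicular helper T cells, a main source of interleukin 21, fell to 1.98 ± 0.37 CPM in oxPAPC libraries, against 4.54 ± 0.83 CPM in control libraries (SD, n = 4 each, edgeR adjusted p = 0.00554). Among 13 tested follicular helper genes 1 rose, Il4, and 1 fell, Bcl6, with a median log2 fold change of 0.21. This is near the background of 6.75% of all tested genes called higher and 6.52% called lower. Il4, a cytokine, had 1.78 CPM in oxPAPC and 0.388 CPM in control libraries, a log2 fold change of 2.19 ± 0.59 (SE; adjusted p = 0.0248 in edgeR). Its log2 fold change was 2.93 without control replicate 3, 2.91 with limma-voom and at its lowest 1.72, without control replicate 4. Its call was lost with the replicate block (0.108) and without oxPAPC replicate 4 or control replicate 1 or 2 (0.0586 to 0.0831). Tox, a follicular helper factor gene, had 25.4 CPM in oxPAPC and 33.1 CPM in control libraries and did not pass (adjusted p = 0.0866 in edgeR). Nfatc1 and Nfatc2, which carry calcium signals to cytokine genes and were looked up for the NFAT core, had 90.8 and 134 CPM in oxPAPC libraries, against 90.9 and 125 CPM in control libraries (adjusted p of 0.997 and 0.737 in edgeR).

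Transcripts of Csf2, Il3, Il2 and Lif are known to be short-lived through AU-rich elements. Of 20 tested genes of proteins that bind or degrade such transcripts, 2 fell and none rose (median log2 fold change 0.01), where 6.52% of all tested genes were called lower and 13.3% in either direction, so the count is near the background. No gene of the list was higher at an unadjusted p under 0.05, 3 were lower, and DESeq2 and limma-voom each called 0 higher and 2 lower. Zfp36, which encodes tristetraprolin, a protein that binds AU-rich elements and speeds decay, had 45.2, 45.5, 52.0 and 39.7 CPM in oxPAPC libraries, against 63.7, 96.4, 66.8 and 80.2 CPM in control libraries. It fell by 0.75 on the log2 scale (with an SE of 0.16; adjusted p = 0.00637 in edgeR), with no overlap of the groups. Pan2, a deadenylase gene, fell by 0.56 (with an SE of 0.16; adjusted p = 0.03 in edgeR), a call lost with library size scaling (0.237) and without any 1 of oxPAPC replicates 1 and 2 and control replicates 2, 3 and 4 (0.0569 to 0.0957). Rc3h2 and Hnrnpd, which also encode RNA-binding proteins, had log2 fold changes of -0.33 and 0.33 and did not pass (edgeR adjusted p of 0.149 and 0.197).

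Protein-coding genes within 150 kb of the chosen genes were measured as well. Next to Il3, 36.5 kb away, Acsl6, a fatty acid activating enzyme gene, had 21.6, 14.7, 21.1 and 19.7 CPM in oxPAPC libraries, against 10.6, 5.51, 7.40 and 12.1 CPM in control libraries. Acsl6 rose by 1.11 ± 0.22 on the log2 scale (SE; adjusted p = 0.0053 in edgeR), without overlap of the groups, while P4ha2 on the other side of Csf2 had -0.29 ± 0.35 (SE; adjusted p = 0.653 in edgeR). Il31ra, of the interleukin 6 family list, lies 9.81 kb from Il6st and was not tested. It had 0.136 CPM in oxPAPC and 0.447 CPM in control libraries. Ankrd55 lies farther from Il6st, at 80.1 kb, and was tested. It had 0.522, 0.331, 0.485 and 0.406 CPM in oxPAPC libraries, against 2.73, 3.32, 4.20 and 2.90 CPM in control libraries. Ankrd55, a gene of an ankyrin repeat protein, fell by 2.90 on the log2 scale (with an SE of 0.30; adjusted p = 5.34e-05 in edgeR).

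Around Lif, 8 neighbours were tested, of which 1 fell and none rose, against 6.52% and 6.75% of all tested genes. Of the 8, 5 had a log2 fold change between -0.004 and 0.188. Castor1, 35.2 kb away and known as an arginine sensor of mTORC1, fell by 0.63 (with an SE of 0.17; adjusted p = 0.022 in edgeR). The call of Castor1 was lost with library size scaling (0.161), with the replicate block (0.0537) and without any 1 of oxPAPC replicates 1, 2 and 4 and control replicates 2 and 4 (0.0582 to 0.075). Sec14l2 had lower values in every oxPAPC library than in any control library and did not pass (log2 fold change -0.52 ± 0.20 SE; adjusted p = 0.104 in edgeR). Near Il21, Cetn4, Bbs12 and Fgf2 had log2 fold changes of 0.31, 0.35 and -0.33, and none of them passed (edgeR adjusted p of 0.63, 0.511 and 0.163). The value of Cetn4 was -0.06 without oxPAPC replicate 4. Near the Il2 gene, 4932438A13Rik had -0.21 (edgeR adjusted p = 0.455).

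**Figure D5:**
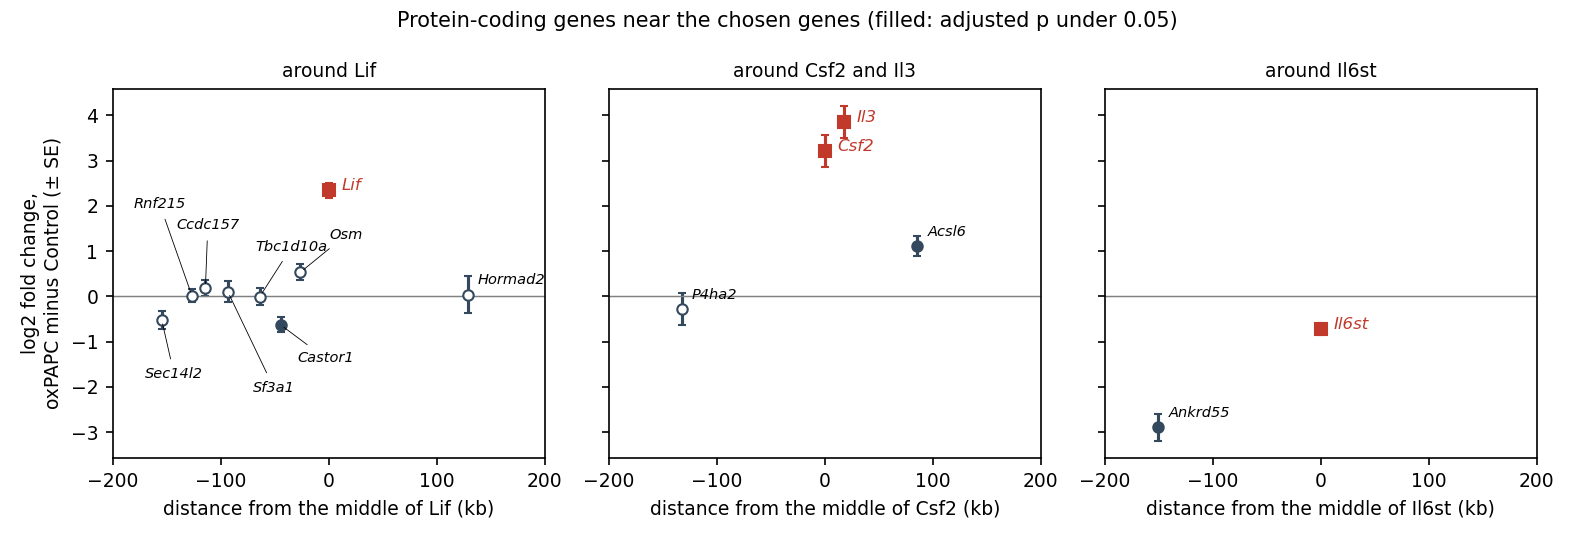
Log2 fold change with its standard error (vertical axis) of protein-coding genes against their distance in kb from the middle of Lif, Csf2 and Il6st (horizontal axis); squares are the chosen genes and filled circles have an edgeR adjusted p under 0.05. Acsl6 (1.11) lies above 0 beside Csf2 and Il3, and Ankrd55 (-2.90) below 0 in the Il6st panel. Il31ra and Ddx4, also near Il6st, were not tested and are not drawn.

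Genes with the nearest pattern were sought among 11560 tested genes with a mean of at least 1 CPM. The chosen genes, pseudogenes and genes named Gm with a number or Rik were left out, so Csf2 and Il3 could not be found near each other. Distance was the root mean square difference between log2 CPM profiles over the 8 libraries, each centred on its own mean. It holds the group difference by which the chosen genes were picked, so a near gene is mainly one with a similar change. The gap to the median of all candidates mainly follows from the size of that change. Neither was tested. Nearest to Lif were Tbx21, the T-bet gene, at 0.20, Crabp2, a retinoic acid binding protein gene, at 0.23 and Irf7, an interferon-response factor gene, at 0.26, against a median of 1.22 over all candidates. Tbx21 had 21.2 CPM in oxPAPC and 4.28 CPM in control libraries. Among the nearest to Il6st were Gas2l3 at 0.05 and Ttc3 at 0.07 (median 0.45). Nearest to Csf2 were Gbp10, Upp1 and Plac8, at 0.34, 0.52 and 0.52 (median 1.65). Nearest to Il3 were Ly6a, the Sca-1 gene, at 0.47, Ccl4, a chemokine gene, at 0.52 and Asb2 at 0.54 (median 1.86). With a prior count of 0.5 in place of 2, Asb2 replaced Gbp10 for Csf2 and Iigp1 replaced Asb2 for Il3. Gbp10 has close paralogs, and its value is uncertain.

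Markers of other cells that the cultures could hold were measured in the same libraries. Of 8 mast cell and basophil genes, 2 had a row and summed to 11.9 to 16.9 CPM in oxPAPC libraries and 19.1 to 27.8 CPM in control libraries, and Fcer1a, Ms4a2, Cpa3, Mcpt8, Prss34 and Gata2 had none. Nearly all of that sum was Kit, which fell (log2 fold change -0.72, edgeR adjusted p = 0.015). Of 8 macrophage and monocyte genes, 5 had a row and summed to 9.09 to 11.3 CPM in oxPAPC libraries and 3.77 to 4.80 CPM in control libraries. Mpeg1 alone passed there, with 4.02 CPM in oxPAPC and 0.203 CPM in control libraries (edgeR adjusted p = 1.23e-05), while Lyz2 had 0.648 CPM in oxPAPC and 0.409 CPM in control libraries and Cd14, Itgam and Fcgr1 had no row. The 7 B cell genes summed to 19.7 to 24.3 CPM in oxPAPC libraries and 11.8 to 17.1 CPM in control libraries, and 4 of the 7 rose. The 4 dendritic cell genes with a row, of 6 listed, summed to 12.5 to 15.3 CPM in oxPAPC and 6.19 to 10.8 CPM in control libraries. Most of that sum was Zbtb46, with 11.5 CPM in oxPAPC and 8.69 CPM in control libraries, which did not pass (edgeR adjusted p = 0.182). Flt3 rose, at 1.06 CPM in oxPAPC and 0.184 CPM in control libraries. Xcr1 did not pass, and Itgax was not tested. Both CD8 genes summed to 10.9 to 18.7 CPM in oxPAPC libraries and 6.72 to 8.90 CPM in control libraries. Of these, Cd8a rose, while Cd8b1 had 6.33 CPM in oxPAPC and 5.96 CPM in control libraries and did not pass (edgeR adjusted p = 0.84). The gamma delta T cell genes with a row, 3 of 4, summed to 1.04 to 2.38 CPM in oxPAPC and 0.920 to 2.24 CPM in control libraries. Trgc2 rose, and Trdc and Trgc1 were not tested. Trdc had 0.352 CPM in oxPAPC and 0.702 CPM in control libraries, and Trgc1 had 0.321 and 0.131 CPM. Sums of the natural killer genes (2 of 5 with a row), stromal genes (2 of 5) and neutrophil genes (1 of 6) ran from 0.101 to 2.12 CPM in oxPAPC libraries and 0.151 to 3.09 CPM in control libraries. None of their 4 tested genes passed in edgeR, DESeq2 or limma-voom, and 1 stromal gene was lower at an unadjusted p under 0.05. The part of these cells in the values of Lif, Csf2, Il3 and Il21 was not tested.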

How the data were processed

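The authors deposited 1 table of raw whole-number read counts by gene and library, together with their own DESeq2 comparison, given as log2 fold changes, fold changes, p-values, a Wald score and size-factor-scaled mean counts (signal), per the file headers. Per the submitters' processing notes, the genome was GRCm38.p6, with featureCounts 2.0.2, STAR 2.7.8a and DESeq2 1.30.1 as tools. No gene of the table has fewer than 5 counts in all but 1 library, and rarer genes were not analysed here.

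The chosen genes and all gene lists were picked with earlier results of these data known. Counts were scaled by TMM, filterByExpr kept 16434 genes, and oxPAPC was compared with control by the quasi-likelihood test of edgeR 4.0.16 (R 4.3.3) with Benjamini-Hochberg adjustment over all tested genes at 0.05. Standard errors were derived from the F statistic, as the fold change on the log2 scale over its root. The test was checked on simulated counts. Profiles for the nearest patterns used log2 CPM with a prior count of 2. Exon lengths are from GENCODE M21, whose coordinates are identical for 97.8% of the table's gene IDs. Named genes are the chosen ones, the 4 members of each pathway list with the smallest adjusted p, all tested receptors, protein-coding genes within 150 kb and the 3 nearest patterns of each chosen gene with a mean of at least 1 CPM. Some named genes are given by count only or are not reported here, and 2 neighbours of Il6st below the filter on low counts were not tested. Alternatives were RLE and library size scaling, an unfiltered table, removal of genes under a mean of 5 CPM, limma-voom (limma 3.58.1), DESeq2 1.42.0, the replicate number as a block and leaving out each library. The depth was 14017583 to 21619731 counts per library, with a biological coefficient of variation of 0.207 in common. No pair of libraries of a group was a copy (chi-square over degrees of freedom at least 13.4). The lowest value was that of oxPAPC replicates 1 and 2, which were closer to each other than any other pair of a group (51.5 to 225.7).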

Additional observations from a re-analysis of the deposited data

Results flagged for a closer look

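Over the chosen and named genes, 120 sets of 4 values were searched for 1 value apart from the other 3. About 1 in 20 such sets is marked by chance, which makes 6, and 3 were marked. Il3 had 0.798 CPM in control replicate 1, against 0.276 to 0.320 CPM in the other control libraries, a difference of 12 reads against 4 to 7. Il21 had 0.0457 CPM in control replicate 3, which is 1 read, and no reads in the other control libraries. Cetn4, a neighbour of Il21, had 2.28 CPM in oxPAPC replicate 4, against 0.992 to 1.12 CPM in the other oxPAPC libraries.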

How the results depend on the processing

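The log2 fold changes of Lif, Il6st, Csf2 and Il3 kept their sign in every alternative that fitted them, and ranged from 2.33 to 2.48, -0.73 to -0.60, 3.21 to 3.35 and 3.86 to 3.97 with another scaling, filter, tool or the replicate block. Csf2 and Il3 were removed by the filter at 5 CPM. With 1 library left out they ranged from 2.26 to 2.46 for Lif, -0.80 to -0.67 for Il6st, 2.92 to 3.56 for Csf2 and 3.66 to 4.31 for Il3. Library size scaling, which moved the median of all genes from -0.01 to 0.12, called 458 genes lower. The replicate block called 1453 genes, 708 of them lower, in place of 2182 and 1072. Leaving out 1 library gave 1390 to 2134 calls, 710 to 1057 higher (lowest without control replicate 2) and 680 to 1144 lower (680 without control replicate 2, 694 without oxPAPC replicate 4). Deviations of same-numbered libraries correlated at 0.32, -0.05, -0.37 and -0.04, and only 2 of the 8 had their best partner under the same number. Over so few libraries this cannot show whether they were paired. The deposited column names alternate between control and oxPAPC, and what a shared replicate number stands for is not given. The main test used no pairs, and the replicate block is given beside it.

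Counts in lists moved as follows. With a filter at 5 CPM, 1 receptor, 1 interleukin 6 family gene, 10 other cytokines and 0 follicular helper genes were higher. With limma-voom 1 receptor was higher, and with DESeq2 1 interleukin 6 family gene was. With library size scaling 1 interleukin 6 family gene, 1 transcription factor and 1 decay gene were lower. With the replicate block 1 interleukin 6 family gene was lower, and 2 JAK-STAT and 0 follicular helper genes were higher. With 1 library left out, receptors had 1 to 2 higher and 0 to 1 lower, the interleukin 6 family 0 to 1 higher and 1 to 3 lower, JAK-STAT 2 to 4 higher, transcription factors 1 to 5 lower, decay genes 1 to 2 lower, and follicular helper genes 0 to 2 higher and 1 to 2 lower. For these counts the cause was not tested.

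Some genes that did not pass changed sign. Csf2ra had 0.003 with RLE, 0.14 with library size scaling, 0.002 with DESeq2, 0.03 with limma-voom and 0.019 with the replicate block. Tbc1d10a had 0.015 with RLE, 0.159 with library size scaling, 0.001 with no filter, 0.014 with DESeq2, 0.025 with limma-voom and 0.02 with the block, and Hormad2 had -0.17 with limma-voom and -0.059 with the block. With 1 library left out, ranges were -0.211 to 0.145 for Csf2ra, -0.108 to 0.084 for Rnf215, -0.147 to 0.252 for Sf3a1, -0.165 to 0.103 for Tbc1d10a, -0.226 to 0.309 for Hormad2 and -0.062 to 0.456 for Cetn4. Of 55 named genes beside the chosen ones, 36 kept direction and side of the threshold throughout. Counts of 0 to 22 reads per control library limit the values of Csf2, Il3 and Il21.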
